A study of Homo sapiens with 3 samples.

Results

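HDAC2 RNA was depleted with 2 short hairpin RNAs in TOV21G cells, and the hairpins were compared with each other gene by gene, shRNA 1 against shRNA 2. TOV21G is an established human cell line of ovarian clear cell carcinoma that carries an ARID1A mutation, and all 3 libraries were made from it. The WT library came from cells labelled as HDAC2 wild type, and each knockdown library from cells transduced with a lentivirus that carries a hairpin against HDAC2. All groups had 1 library, so each difference is a description without a replicate check, and no test could be made between the hairpins. The labels name no control virus for the WT cells, and nothing there says that a hairpin was used on more than 1 culture. The genes described are the 10111 of 57736 rows of the count table with at least 200 counts summed over the 3 libraries, after pseudogenes, read-through names and symbols found in more than 1 row were left out. Of these genes, 9809 are protein-coding, and they hold 92.3%, 92.7% and 92.7% of the counts of WT, shRNA 1 and shRNA 2, whose totals were 10138479, 11398791 and 11225492.

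HDAC2 is a class I histone deacetylase, which works with its close relative HDAC1 in the NuRD, SIN3 and CoREST corepressor complexes. Removing acetyl groups from histone tails is generally linked to lower transcription of nearby genes, and loss of the enzyme is known to raise the cell cycle inhibitor CDKN1A. A short hairpin is cut into a small duplex, 1 arm of which guides the silencing complex to a fully matched messenger. The seed of that guide, bases 2 to 8, can also lower other messengers that hold a short match in their 3′ UTR. Hairpins with different seeds are therefore used in parallel, so that a change seen with both can be told from one seen with either alone.

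The stems of the hairpins given in the labels are shown because their seeds differ and their target sites lie in different parts of HDAC2. The first line of each pair is the sense stem and the second the antisense arm, both 5′ to 3′, with the seed in capitals.
first stem: cagtctcaccaatttcagaaa
first antisense arm: tTTCTGAAattggtgagactg
second stem: gcaaatactatgctgtcaatt
second antisense arm: aATTGACAgcatagtatttgc
The first stem matched chr6:113941031-113941051 on the minus strand (GRCh38), which is part of the 3′ UTR in the final exon of HDAC2. The second matched chr6:113949221-113949241, also on the minus strand, and lies in coding sequence, in exon 8 of 15 or exon 7 of 14 depending on the transcript. Each stem matched exactly in 1 annotated gene. The labels do not say which stem is shRNA 1, so neither library was assigned a sequence.

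Less HDAC2 RNA remained with shRNA 1 than with shRNA 2. Levels are normalised read counts (CPM, scaled by TMM factors), and intervals in parentheses are exact binomial 95% intervals of a ratio of counts, which cover counting error only. HDAC2 (chromosome 6, 113933028 to 114011308, GRCh38) had 105 CPM in WT, 33.4 CPM with shRNA 1 and 51.6 CPM with shRNA 2. The knockdown libraries thus held 31.7% and 48.9% of the WT level, and shRNA 1 had 0.648 times the level of shRNA 2 (0.568 to 0.739). In RNA from bulk cells, fewer cells of a type and less RNA per cell cannot be told apart. The related deacetylases lay close together in the hairpin libraries: the log2 difference, shRNA 1 minus shRNA 2, was -0.05 for HDAC1, -0.09 for HDAC3 and 0.02 for HDAC8, and for ARID1A it was -0.07. HDAC3 had 103 CPM in WT, 68.7 CPM with shRNA 1 and 73.2 CPM with shRNA 2, so it was below WT with both. HDAC1 was also below WT, at 81.3% of its level with shRNA 1 and 84.4% with shRNA 2. ARID1A stood at 75.7% and 79.7% in the same order. HDAC8 stood at 82.9% and 81.7% of WT, but both of its intervals against WT include 1 (0.655 to 1.05 and 0.645 to 1.04).

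CDKN1A, C3 and HBEGF showed 3 different patterns across the libraries. CDKN1A (chromosome 6, 36676460 to 36687339), which encodes the CDK inhibitor p21, had 326 CPM in WT, 759 CPM with shRNA 2 and 1121 CPM with shRNA 1. Its order was the reverse of that of HDAC2, and shRNA 1 exceeded shRNA 2 by 1.48-fold (1.44 to 1.52). This log2 difference of 0.56 became 0.48 once the trend over transcript GC content described below was removed. C3 (chromosome 19, 6677704 to 6730562), the central complement component, had 112 CPM in WT, 98.7 CPM with shRNA 2 and 264 CPM with shRNA 1. It stood near WT with shRNA 2, while shRNA 1 was 2.68-fold above shRNA 2 (2.50 to 2.87). HBEGF (chromosome 5, 140332843 to 140346631), a membrane-bound ligand of the EGF receptor, had 84 counts in WT (8.43 CPM), 36 with shRNA 2 (3.18 CPM) and 116 with shRNA 1 (10.1 CPM). HBEGF thus lay further from WT with shRNA 2 than with shRNA 1, and the ratio of 3.18 between hairpins has a wide interval (2.17 to 4.76) at this depth. With the trend of the differences over transcript GC content removed, its log2 difference from WT was 0.34 with shRNA 1 and -1.24 with shRNA 2, at least a 25% step to either side.

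**Figure D1:**
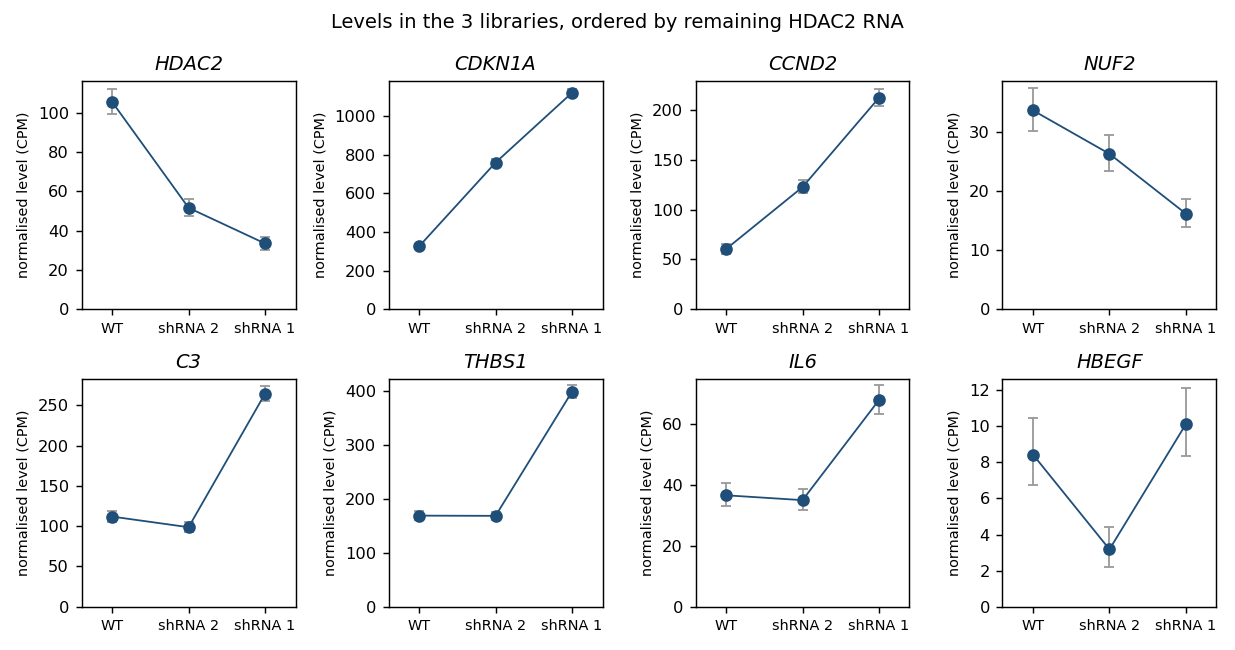
Level in CPM (vertical axis, from 0) of 8 genes in the 3 libraries, ordered on the horizontal axis from most to least remaining HDAC2 RNA; each point is 1 library and bars are exact 95% counting intervals. CDKN1A and CCND2 climb and NUF2 declines at each step, C3, THBS1 and IL6 are high with shRNA 1 alone, and HBEGF is lowest with shRNA 2.

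Across the well-counted genes the hairpin libraries were close. The levels of 8307 genes (82.2%) lay within 25% of each other (0.32 on the log2 scale, the higher level over the lower), the median log2 difference was 0.00, and the quartiles were -0.15 and 0.16. At least 1.5-fold higher with shRNA 1 were 227 genes (2.25%), and at least 1.5-fold lower were 104 (1.03%). All of these have a counting interval that leaves out 1. A gap of 2-fold or more was rarer, with 27 genes higher and 4 lower. Against WT, 1393 genes differed by 1.5-fold or more with shRNA 1 (734 up, 659 down) and 1594 with shRNA 2 (831 up, 763 down). More genes were thus displaced from WT in the library that kept more HDAC2 RNA. These counts still hold the trend over transcript GC content described below, which was steeper with shRNA 2 than with shRNA 1. The part of that trend in the counts was not tested. Both comparisons with WT use the same WT library.

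The hairpin difference moved with the base composition of the transcripts. In 5 equal bins of the genes from low to high transcript GC content, the median log2 difference between hairpins went from -0.12 through -0.07, 0.01 and 0.07 to 0.11. The medians of shRNA 1 against WT ran the other way, from 0.26 to -0.22, and those of shRNA 2 against WT from 0.35 to -0.33. Genes higher with shRNA 1 had a median GC content of 52.5% and genes lower with it 41.7%, against 47.2% over all. Across the 10009 genes with a known GC content, Pearson's r was 0.31 for the hairpin difference. It was -0.42 for shRNA 1 against WT and -0.59 for shRNA 2 against WT. These genes share their libraries and are not replicates. The part of base composition in single genes was not tested. Values after removal of this trend (a loess curve of each knockdown library's difference from WT on GC content) are given beside some of the counts.

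**Figure D2:**
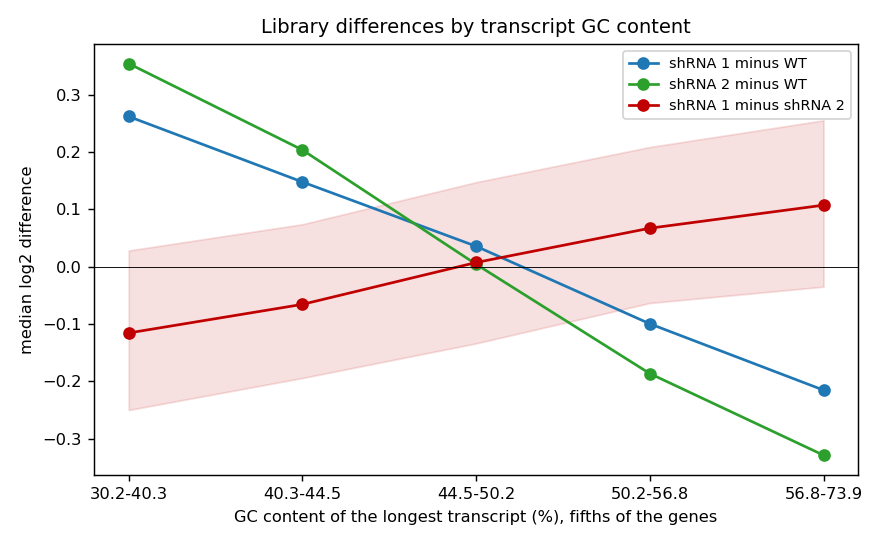
Median log2 difference (vertical axis) in 5 equal bins of the genes by GC content of the longest transcript in percent (horizontal axis), for each hairpin against WT and for shRNA 1 minus shRNA 2; the shaded band spans the quartiles of the latter. The hairpin difference climbs from -0.12 to 0.11, and both differences from WT decline, more steeply with shRNA 2.

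A gene was called graded with remaining HDAC2 when shRNA 2 was at least one such 25% step from WT and shRNA 1 at least another step further in the same direction. Rising in this way were 82 genes (0.811%) and falling 102 (1.01%). For 67 of the rising and 87 of the falling genes the counting interval between the hairpins leaves out 1. The call does not use the interval of the first step, from WT to shRNA 2, which includes 1 for some genes named below. The mirror pattern, in which shRNA 2 lay furthest from WT, was about as frequent, with 82 rising (0.811%) and 86 falling genes (0.851%). With the GC trend removed, 83 and 116 genes were graded with remaining HDAC2 and 36 and 26 the other way. Of the genes graded before that removal, 50 rising and 63 falling were still in the class, against 17 and 21 in the mirror class. The median GC content was 43.3% in the rising and 49.1% in the falling graded genes, but 39.7% and 59.2% in the mirror classes. Both steps of a graded gene share the shRNA 2 library, so an error in that library alone moves them in opposite senses.

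**Figure D3:**
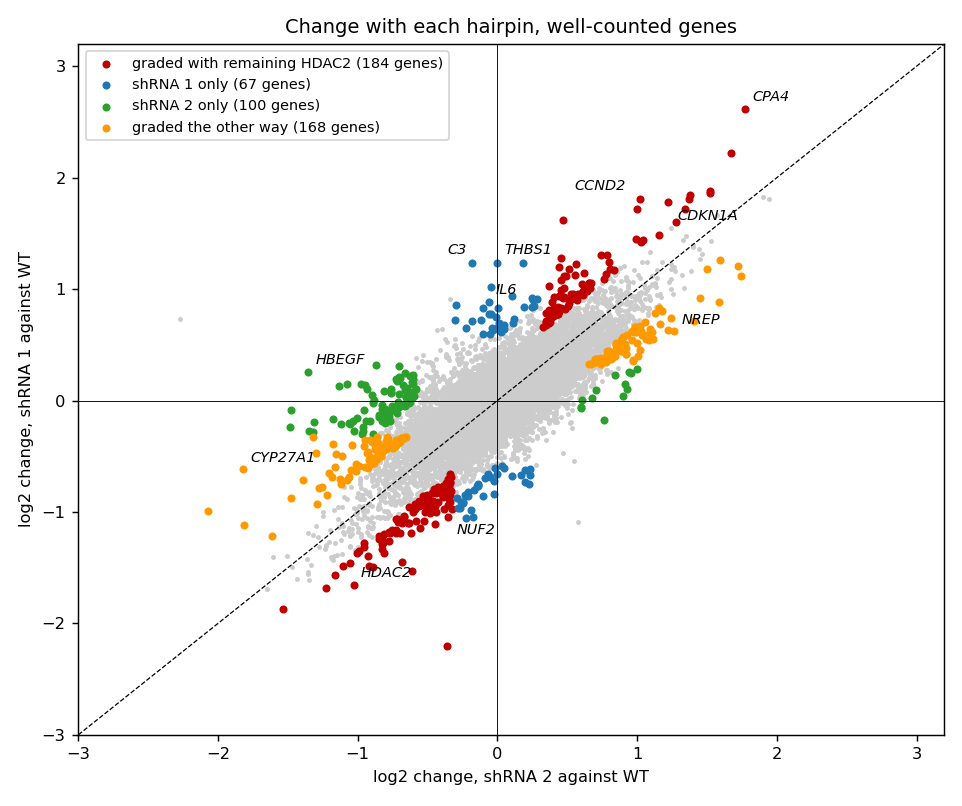
Log2 change of each gene against WT with shRNA 2 (horizontal axis) and shRNA 1 (vertical axis), 1 point per gene; the dashed line marks equal change, colours mark the patterns, and 2 genes lie outside the plotted range. Both axes share the WT library, which spreads points along the dashed line, so the distance from that line carries the hairpin difference.

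Among the graded rising genes, CCND2 and CPA4 had the widest steps, and CDKN1A was among the first 8. CPA4 is a carboxypeptidase first described as induced by histone deacetylase inhibitors. It had 17 counts in WT (1.71 CPM), 71 with shRNA 2 (6.28 CPM) and 131 with shRNA 1 (11.4 CPM). At this depth its first step, 3.68-fold from WT to shRNA 2, has a wide interval (2.15 to 6.67). The shRNA 1 library was 1.82-fold above shRNA 2 (1.35 to 2.47). CCND2, a D-type cyclin, had 60.5 CPM in WT, 123 CPM with shRNA 2 and 213 CPM with shRNA 1, a 1.73-fold step between hairpins (1.62 to 1.85). CCN2, also called connective tissue growth factor, went from 19.7 to 34.0 and 48.9 CPM in the same order. The cell adhesion molecule NRCAM went from 4.72 to 7.34 and 10.6 CPM, and the protocadherin PCDHB14 from 4.21 to 6.28 and 9.42 CPM. XKR4, a member of the XK-related membrane protein family, went from 44.6 to 74.7 and 111 CPM, and AGFG2 from 3.71 to 5.57 and 8.90 CPM. All 8 of these named genes kept the graded pattern with the GC trend removed.

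The graded falling genes with the widest steps included HDAC2 itself, whose levels set the order, and several genes that act in mitosis. SPC24, a kinetochore subunit, had 65.0 CPM in WT, 34.3 CPM with shRNA 2 and 23.1 CPM with shRNA 1. PSRC1, a spindle-associated protein, went from 34.2 to 18.4 and 12 CPM. CDC25C, the phosphatase that activates CDK1 at mitotic entry, went from 19.7 to 11.1 and 7.50 CPM. CDKN3, a phosphatase of cyclin-dependent kinases, went from 51.5 to 33.4 and 22.4 CPM, and RMI1, a partner of the BLM helicase, from 27 to 18.3 and 12.1 CPM. In these 5 genes shRNA 1 stood at 0.655 to 0.674 times the level of shRNA 2. SAPCD2, a spindle orientation protein, had 21.3, 13.9 and 7.24 CPM in WT, shRNA 2 and shRNA 1, and GSDMD, the pore-forming protein of pyroptosis, 9.63, 5.93 and 3.40 CPM. SAPCD2 and GSDMD are rich in GC (66.4% and 64.8%), and with the trend removed both differed from WT with shRNA 1 only.

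Some genes followed 1 hairpin only. They were at least 1.5-fold from WT with that hairpin, within 25% of WT with the other, and at least 1.5-fold apart between hairpins. With shRNA 1 only, 33 genes were higher (0.326%) and 34 lower (0.336%). With shRNA 2 only, 13 were higher (0.129%) and 87 lower (0.86%). The genes low with shRNA 2 only are therefore the largest of these 4 groups, and their median GC content was 55.3%. Removal of the GC trend left 34 and 24 genes for shRNA 1 and 5 and 52 for shRNA 2, of which 19, 12, 3 and 40 were the same genes.

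**Figure D4:**
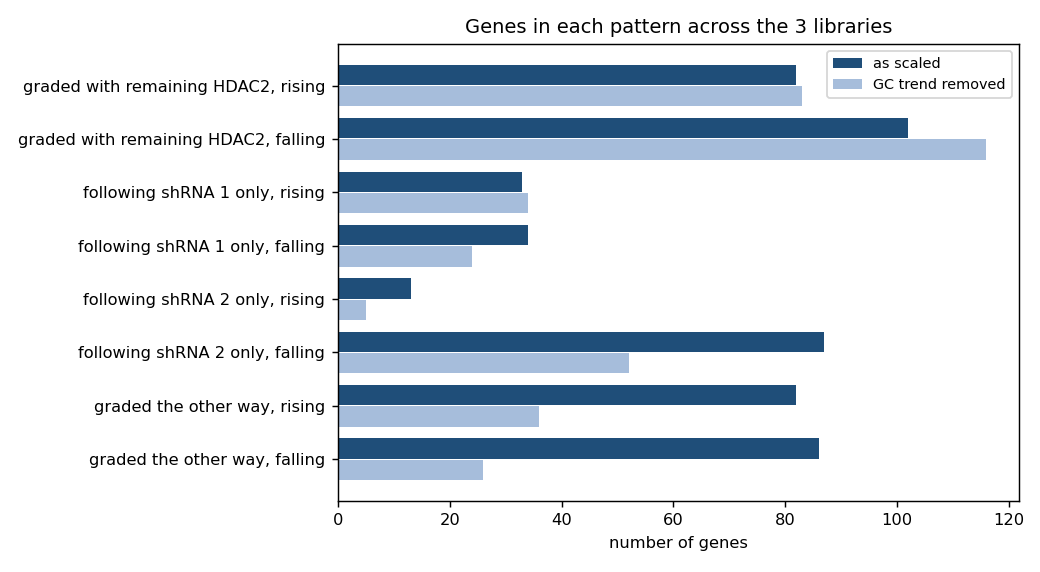
Number of genes (horizontal axis, from 0) in each pattern across the 3 libraries, as scaled (dark) and with the GC trend removed (light). The classes graded with remaining HDAC2 hold 82 and 102 genes and change little in size, while the mirror classes shrink from 82 and 86 to 36 and 26.

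Of the 6 first-ranked genes high with shRNA 1 only, C3, THBS1, IGFBP3 and IL6 encode secreted proteins. THBS1, the matrix glycoprotein thrombospondin 1, had 169 CPM both in WT and with shRNA 2, and 399 CPM with shRNA 1 (2.36-fold between hairpins, 2.24 to 2.49). IGFBP3, a binding protein of insulin-like growth factors, had 103 CPM in WT, 83.5 CPM with shRNA 2 and 187 CPM with shRNA 1. IL6, an inflammatory cytokine, had 36.5, 34.9 and 67.7 CPM in the same order. In each of these, as in C3, the shRNA 1 library stood alone above the others, which the class requires. CLSTN2, a calsyntenin of neuronal membranes, had 29.9, 34.0 and 70.8 CPM, and OSTM1, a subunit of a lysosomal chloride transporter, 25.1, 24.3 and 51.0 CPM. OSTM1 was opposite in direction with the 2 hairpins once the GC trend was removed.

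Among genes low with shRNA 1 only, HPF1, the partner of PARP1 in serine ADP-ribosylation, had 13.9 CPM in WT, 16.4 CPM with shRNA 2 and 8.20 CPM with shRNA 1. MT1F, a metallothionein, had 39.1, 46.1 and 24.6 CPM, and MAT2B, the regulatory subunit of methionine adenosyltransferase, 64.9, 76.3 and 42.2 CPM. FIGNL1, which acts in homologous recombination, had 27.9, 24.4 and 14 CPM, and CEP57L1, a centrosomal protein, 20.2, 22.7 and 12.7 CPM. RPL21 had 38.1, 40.9 and 23.8 CPM, but 19% of its 75-base sequences occur in other genes, so its count depends on how reads were divided between copies. In all 6 the WT and shRNA 2 libraries were near each other, as the class requires. With the GC trend removed FIGNL1 was graded falling, and MT1F stood on opposite sides of WT with the hairpins.

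Besides HBEGF, the genes low with shRNA 2 only were led by CRIP2, INO80C and UBTD1. CRIP2, a LIM domain protein, had 30.9 CPM in WT, 29.1 CPM with shRNA 1 and 11 CPM with shRNA 2. INO80C, a subunit of the INO80 chromatin remodeller, had 22.0, 24.1 and 9.90 CPM in that order, and UBTD1, a ubiquitin-domain protein, 19.9, 16.8 and 6.99 CPM. The ratio between hairpins was 2.65 for CRIP2 (2.15 to 3.28), 2.43 for INO80C (1.94 to 3.06) and 2.41 for UBTD1 (1.85 to 3.17). The fibril-associated collagen COL12A1 had 115, 94.1 and 45.7 CPM, and the calcium-binding protein S100A16 161, 173 and 83.7 CPM. As the class requires, it was the library with more HDAC2 RNA left that departed from WT in these genes. CRIP2 and UBTD1 have a GC content of 66.2% and 66.5%, and their log2 differences were 1.30 and 1.15 with the trend removed.

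Few genes were high with shRNA 2 only. STARD4, which carries cholesterol between membranes, had 66.9 CPM in WT, 79.5 CPM with shRNA 1 and 130 CPM with shRNA 2. PRDM1, the transcriptional repressor BLIMP1, had 5.92, 5.23 and 10.2 CPM in that order, and GPNMB, a membrane glycoprotein of melanosomes and lysosomes, 15.3, 18.3 and 29.7 CPM. The desmosomal cadherin DSG2 had 217, 231 and 353 CPM, the zinc finger protein ZNF711 6.32, 6.81 and 12.2 CPM, and the centromere protein CENPC 26.5, 25.3 and 40.2 CPM. Of these 6, PRDM1 and GPNMB kept the pattern with the GC trend removed, and STARD4, DSG2, ZNF711 and CENPC fell in no class.

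Genes graded the other way departed further from WT with shRNA 2 in the same direction as with shRNA 1. COL1A2, a chain of type I collagen, had 8.73 CPM in WT, 19.2 CPM with shRNA 1 and 29.6 CPM with shRNA 2. NREP, a small neuronal protein, had 157, 241 and 377 CPM in that order, and the interferon-inducible genes SAMD9 and SP110 had 5.62, 10.6 and 17.2 CPM and 5.42, 8.99 and 14.7 CPM. On the falling side, the mitochondrial sterol hydroxylase CYP27A1 had 37.9, 24.7 and 10.6 CPM, a ratio of 2.33 between hairpins (1.87 to 2.90). OIP5, which helps load the centromeric histone, had 44.0, 20.2 and 12.4 CPM. The kinase HUNK had 14.2, 8.64 and 5.31 CPM and the matrix protein FBLN1 14.8, 9.77 and 6.54 CPM. By the rule that chose them, the amount of HDAC2 RNA left did not order the libraries for these 8 genes.

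The list of NF-kB targets and secreted cytokines lay highest with shRNA 1 relative to shRNA 2. NF-kB transcription factors act in inflammation, but whether they act on the genes of this list was not tested. The list also holds other secreted proteins, such as IGFBP3. Of its 27 well-counted genes 26 were above 0 in the hairpin difference, 7 were at least 1.5-fold higher and 0 lower, against 2.25% and 1.03% of all genes, and the median was 0.39, against 0.00 over all genes. Under the other scalings tried 25 or 26 stayed above 0, and with the GC trend removed 23 did, at a median of 0.35. Against WT the list's median was 0.35 with shRNA 1 and -0.16 with shRNA 2, so the libraries lay on either side of WT. After GC correction those medians were 0.49 and 0.01. The neutrophil chemokine CXCL5 had 156 CPM in WT, 155 CPM with shRNA 2 and 261 CPM with shRNA 1, and the monocyte chemokine CCL2 24.6, 21 and 38.6 CPM. With the GC trend removed CXCL5 had log2 differences from WT of 0.52 with shRNA 1 and -0.36 with shRNA 2. ICAM1, a leukocyte adhesion receptor, had 36.1 CPM in WT, 19.5 CPM with shRNA 2 and 36.2 CPM with shRNA 1, and so was low with shRNA 2 only. The exception to the list's sign was NFKBIZ, a nuclear regulator of NF-kB, with 142 CPM with shRNA 2 and 139 CPM with shRNA 1. CCL2, ICAM1 and NFKBIZ were chosen after their values were seen, as were the genes of the lists below that are named for a pattern.

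Cell surface integrins and matrix genes leaned the same way. Of 10 integrins 8 were above 0, 3 were at least 1.5-fold higher with shRNA 1 and 0 lower (2.25% and 1.03% of all genes), with a median of 0.30. ITGA3, a laminin receptor chain, had 114 CPM in WT, 84.0 CPM with shRNA 2 and 176 CPM with shRNA 1, one of 18 genes above WT with shRNA 1 and below it with shRNA 2 by at least a 25% step each (0.178%). With the GC trend removed its log2 difference from WT with shRNA 2 went from -0.43 to -0.09, and it then differed from WT with shRNA 1 only. The reverse was seen in 4 genes (0.0396%). ITGA6, another laminin receptor chain, had 28.7, 26.4 and 47.5 CPM, and ITGAV, a chain of RGD-binding integrins, 265, 256 and 401 CPM. With the GC trend removed ITGAV had log2 differences from WT of 0.39 with shRNA 1 and -0.38 with shRNA 2. The chains below 0 were ITGA2 (-0.58) and ITGB6 (-0.42). Of 27 matrix genes, 23 were above 0 (21 to 23 under the other scalings, 19 with the GC trend removed), 4 were at least 1.5-fold higher and 2 lower (2.25% and 1.03% of all genes), with a median of 0.27. Those lower were COL1A1 and COL1A2, the chains of type I collagen, and COL1A1 had 6.72, 7.87 and 4.71 CPM in WT, shRNA 2 and shRNA 1. Those higher included LOXL2, a collagen cross-linking enzyme, with 110, 76.1 and 114 CPM, and COL8A1 with 30.3, 28.5 and 43.0 CPM. Among 10 EGF ligands and ERBB receptors the median was 0.15, with HBEGF higher and ERBB3 lower; ERBB3 had 9.93, 9.82 and 6.46 CPM. TGFA, another ligand of the EGF receptor, had 43.8, 41.5 and 57.0 CPM, and EGFR itself 170, 162 and 202 CPM.

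Genes of G2 and mitosis lay lowest with shRNA 1 relative to shRNA 2. Of 48 genes 45 were below 0 (45 or 46 under the other scalings), 4 were at least 1.5-fold lower (1.03% of all genes) and 0 higher (2.25%), and the median was -0.31 (-0.28 with the GC trend removed). Against WT its median was -0.71 with shRNA 2 and -1.03 with shRNA 1. By pattern, 11 of the 48 were graded falling (1.01% of all genes), 3 were low with shRNA 1 only (0.336%), and 17 were at least 1.5-fold below WT with both hairpins and within 25% of each other, a pattern of 309 genes in all (3.06%). NUF2 and NDC80, subunits of the kinetochore complex that binds microtubules, had 33.6, 26.3 and 16.1 CPM and 32.4, 26.5 and 17.5 CPM in WT, shRNA 2 and shRNA 1. SPC25, of the same complex as NUF2, NDC80 and SPC24, had 54.3, 42.2 and 41.5 CPM, so its subunits did not share a step. HMMR, a spindle assembly factor, had 66.1, 55.7 and 34.9 CPM. NDC80 and HMMR were low with shRNA 1 only as scaled, but graded falling with the GC trend removed. Securin (PTTG1) had 811, 426 and 308 CPM and cyclin B1 (CCNB1) 502, 306 and 237 CPM, both graded. The mitotic kinase PLK1 had 120 CPM in WT and 54.3 and 54.4 CPM with shRNA 2 and shRNA 1, and the mitotic transcription factor FOXM1 137, 59.4 and 56.6 CPM. Their ratios between hairpins were 1.00 (0.895 to 1.12) and 0.953 (0.854 to 1.06), so the steps seen in PTTG1 and CCNB1 were not seen in them. Not below 0 were PLK1, the centromeric histone CENPA and the phosphatase CDC25B, which was graded the other way.

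Genes of G1/S and DNA replication shared the sign with a smaller gap. Of 44 genes 40 were below 0, 1 was at least 1.5-fold lower (1.03% of all genes) and 0 higher (2.25%), and the median was -0.19 (-0.22 with the GC trend removed). Against WT the medians were -0.74 with shRNA 2 and -0.91 with shRNA 1. In this list 26 genes were low with both hairpins alike (3.06% of all genes) and 7 were graded falling (1.01%). PRIM1, the catalytic subunit of primase, had 27.2 CPM in WT, 22.9 CPM with shRNA 2 and 14.4 CPM with shRNA 1. It was low with shRNA 1 only as scaled, but graded falling with the GC trend removed. CCND1, a D-type cyclin like CCND2, went the other way, from 131 to 200 and 258 CPM. Homologous recombination and Fanconi genes, 17 of 23 below 0, had a median of -0.24, with RAD51D at least 1.5-fold lower at 8.13, 8.84 and 5.67 CPM.

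**Figure D5:**
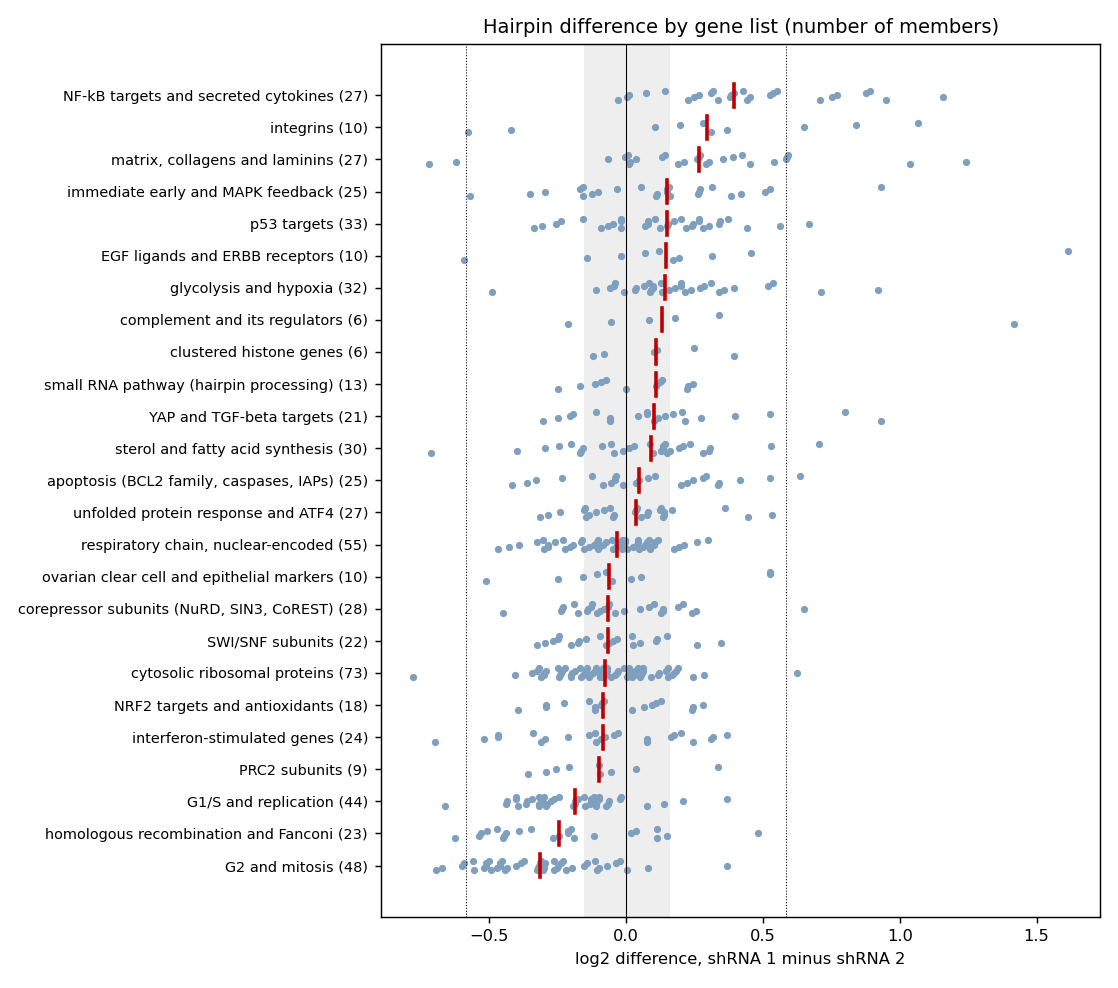
Log2 difference of shRNA 1 minus shRNA 2 (horizontal axis) for the well-counted genes of each list with at least 5 of them, 1 point per gene, with the list median as a red bar; the grey band spans the quartiles over all genes and dotted lines mark 1.5-fold. NF-kB targets and secreted cytokines sit mostly to the right and genes of G2 and mitosis mostly to the left of 0.

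Targets of p53, the stress-activated transcription factor that induces CDKN1A, lay above WT in the median with both hairpins. That median against WT was 0.58 with shRNA 2 and 0.65 with shRNA 1, and 11 of 33 were high with both alike, a pattern of 404 genes in all (4%). Between hairpins 22 were above 0 and 11 below, with a median of 0.15 and 1 gene at least 1.5-fold higher (2.25% of all genes). Graded rising were CDKN1A, PLK3, GDF15 and ZMAT3, 4 of the 33 (0.811% of all genes). PLK3, a stress-responsive kinase, had 4.92 CPM in WT, 7.07 CPM with shRNA 2 and 11.3 CPM with shRNA 1, and ZMAT3, an RNA-binding protein, 61.3, 177 and 224 CPM. For PLK3 the interval of shRNA 2 against WT includes 1 (0.996 to 2.10). MDM2, the ligase that degrades p53, had 253, 530 and 598 CPM, and the growth arrest gene GADD45A 6.62, 15.9 and 15.7 CPM. Their ratios between hairpins, 1.13 and 0.987, were closer to 1 than the 1.48 of CDKN1A.

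Matches to the hairpin seeds in 3′ UTRs were counted, for the 9776 genes with an annotated one. The first seed pairs with TTCAGAA and the second with TGTCAAT, read on the messenger strand, and the reverse complement of each served as a motif of like composition. The first match was present in 26.2% of these genes (its reverse complement in 26.6%) and the second in 10.9% (11.2%). Genes low with shRNA 1 only held the first match in 12.1% and the second in 3.0%, and those low with shRNA 2 only in 19.8% and 12.8%. The reverse complements were found in 18.2% and 9.1% of the former and in 20.9% and 5.8% of the latter. In genes low with shRNA 2 only, 11 of 86 held the second match, more than held its control motif. This share moved with the base at which the guide is taken to start: 1 base further out it was 2.3%, against 7.5% of all genes, and 1 base further in it was 20.9% (18 of 86), against 11.8%. The match taken 1 base further in was held by 48 of the 218 genes higher with shRNA 1 than with shRNA 2 that have an annotated 3′ UTR (22.0%). These include the genes low with shRNA 2 only, so the shares are not separate observations. Like shares were found in genes high with both hairpins alike (21.5%, 84 of 391), high with shRNA 1 only (19.4%) and in the mirror class rising (18.9%). Genes low with both alike (6.1%) and genes lower with shRNA 1 than with shRNA 2 (3.2%) held it less often. The median hairpin difference of genes with a match minus genes without was -0.02 for the first and -0.01 for the second, and 0.03 and 0.05 with the GC trend removed. For the second match taken 1 base further in it was 0.04, and 0.07 with the GC trend removed. The 3′ UTRs of the groups differ in length. Their median was 709 bases in genes low with shRNA 1 only and 1304 bases in genes low with shRNA 2 only, against 1442.5 over all. It was 2684 bases in genes high with both alike, 2286 in genes high with shRNA 1 only and 1846 in the mirror class rising. Genes low with both alike had a median of 751 bases and genes lower with shRNA 1 than with shRNA 2 had 1054. The part of length in these shares was not tested, and no control motif was counted for the shifted matches.

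The cell line's markers were checked in each library. Of 16 ovarian clear cell and epithelial markers, 10 were well counted, with a summed level of 2672, 3110 and 2984 CPM in WT, shRNA 1 and shRNA 2. Leukocyte markers summed to 9.33, 8.46 and 5.48 CPM, none of 13 was well counted, and 6 were at 0 in every library (CD3D, CD3E, CD4, FCGR3A, MS4A1 and TYROBP). Fibroblast and endothelial markers summed to 48.7, 48.2 and 44.1 CPM, with 2 of 12 well counted and KDR and LUM at 0. Markers of kidney lines used to package virus summed to 285, 318 and 358 CPM, nearly all from INA and PAX2, and SIM1, EYA1 and NEFM were at 0.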

How the data were processed

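Total RNA of TOV21G cells was made into ScriptSeq Complete Gold libraries and sequenced as 75-base reads, per the labels' protocols. The authors deposited whole-number estimated counts per Ensembl gene for the 3 libraries. RSEM 1.2.3, edgeR and the hg19 build are named in the submitters' processing notes without their roles. The sources used here do not state whether strand was counted, so overlapping antisense genes cannot be told apart. A read that fits several genes is shared out by RSEM. The 488 genes with at least 20% of their 75-base sequences in other genes, or without a sequence in GENCODE 29, are therefore uncertain. GENCODE 29 (GRCh38) gave names, types, GC content, 3′ UTRs and stem positions; 102 genes were not in it. The hg19 annotation was not used here.

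Levels are CPM with TMM factors (edgeR 4.0.16, R 4.3.3), and differences are of log2 CPM with a pseudocount of 2, called at 1.5-fold. Ratios have exact binomial (Clopper-Pearson) 95% intervals, which cover counting error only. There was no test and no p-value, because each group has 1 library. Scaling and intervals were tested on simulated data. Of the rows with at least 200 counts, 94.8% were kept: 143 genes with 200 to 220 counts had hairpin differences of -1.67 to 0.85 (median -0.06), and 160 rows with 180 to 199 counts, left out, -1.21 to 0.96 (median 0.02).

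The genes, the 29 lists and the patterns were chosen with earlier results of these data known. Genes named by rule (77) were HDAC2, CDKN1A, C3, HBEGF, HDAC1, HDAC3, HDAC8 and ARID1A; the 12 highest and 12 lowest with shRNA 1 by the bound of the interval nearest to 1; the first 8 of each graded class, 6 of each class of 1 hairpin and 4 of each mirror class; and up to 3 genes of each list in each direction past 1.5-fold. Ranked choices left out genes that may share reads and unnamed clones. The alternatives were other scalings (DESeq2 1.42.0 size factors, total counts, upper quartile), count minimums of 100 and 1000, a pseudocount of 0.5, steps of 1.5-fold with changes of 2-fold, removal of GC or length trends (loess, span 0.5), leaving out genes that may share reads, and guides shifted by 1 base.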

Additional observations from a re-analysis of the deposited data

Results flagged for a closer look

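A group of 17 genes stood at least 25% from WT in opposite directions with the hairpins, with both counting intervals against WT leaving out 1. Genes that may share reads and unnamed clones were left out of the group. The difference was not tested, since each hairpin has 1 library, and no explanation is weighed. Above WT with shRNA 1 and below it with shRNA 2 were 14 genes, with log2 differences between hairpins of 1.07 for ITGA3, 1.04 for CPOX, an enzyme of heme synthesis, 0.96 for OSBPL1A, 0.94 for GIPC1, 0.93 for CCN1, 0.90 for ATP1B1, a subunit of the sodium pump, 0.88 for HSPA12A, 0.85 for VANGL2, a planar cell polarity protein, 0.83 for SH3PXD2A, 0.80 for MYBL1, 0.79 for ASTN2, 0.76 for MGAT5, 0.74 for BMAL2 and 0.71 for RCAN1. ATP1B1 had 393 CPM in WT, 503 CPM with shRNA 1 and 270 CPM with shRNA 2, and CCN1, a matricellular protein, 149, 219 and 115 CPM. Below WT with shRNA 1 and above it with shRNA 2 were CRYBG1 (-1.09), LRRN3 (-0.94) and CASP8AP2 (-0.70). LRRN3, a leucine-rich repeat membrane protein, had 112 CPM in WT, 80.9 CPM with shRNA 1 and 155 CPM with shRNA 2. With the GC trend removed, 16 of the 17 kept opposite signs, all but CASP8AP2, but 4 still stood at least 25% from WT each way: CPOX, ATP1B1, HSPA12A and CRYBG1. ITGA3, CCN1 and LRRN3 then differed from WT with shRNA 1 only.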

How the results depend on the processing

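Values for the patterns are given in the order higher and lower with shRNA 1, graded rising and falling, shRNA 1 only rising and falling, shRNA 2 only rising and falling, and the mirror class rising and falling. With at least 1000 counts summed the counts were 101, 21, 24, 57, 18, 8, 3, 38, 21 and 26, since fewer genes are counted. With steps of 1.5-fold and changes of 2-fold they were 27, 4, 3, 4, 5, 2, 0, 9, 6 and 5, by the stricter rule. With at least 100 counts 168 genes were lower with shRNA 1. With the GC trend removed the shRNA 2 only classes held 5 and 52 genes and the mirror classes 36 and 26; the cause was not tested. The other 75 of the 100 counts recomputed stayed within 1.5 times, and no difference called at 1.5-fold turned direction. Of 252 list medians 5 moved; with at least 1000 counts those of interferon-stimulated (0.08) and fibroblast and endothelial genes (0.30) changed sign and that of the small RNA pathway reached -0.00, and with at least 100 counts that of histone genes (-0.03). Of 657 values of named genes 5 moved, all by GC removal. Of 32 shares of genes with a seed match 6 moved when the guide was shifted by 1 base: to 45.9% for the first match in the mirror class rising (inward), and for the second to 0% in shRNA 2 only rising (both ways), 2.3% in shRNA 2 only falling (outward), and 18.9% and 13.6% in the mirror class rising and falling (inward). No paired analysis was possible because each group has 1 library, and no library could be left out. A difference near 25% in genes near 200 counts is within counting error, and what a second culture would add is unknown.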

Other observations

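Of the gene groups that do not enter the comparisons above, glycolysis and hypoxia genes leaned towards shRNA 1. The others described here differed little between the hairpins in their medians, with a few members apart. Among 28 corepressor subunits (NuRD, SIN3, CoREST) the median hairpin difference was -0.06, and GATAD2A, a NuRD subunit, was 1.57-fold higher with shRNA 1 (120 CPM in WT, 106 CPM with shRNA 1, 67.7 CPM with shRNA 2). The 22 SWI/SNF subunits had a median of -0.07 and none past 1.5-fold, against 2.25% of all genes higher and 1.03% lower. With so few genes these shares would leave about none. Among 30 genes of sterol and fatty acid synthesis the median was 0.09. SREBF2, the transcription factor of the sterol pathway, had 79.4 CPM in WT, 78.9 CPM with shRNA 1 and 48.3 CPM with shRNA 2, while the sterol carrier STARD4 was highest with shRNA 2.

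Glycolysis and hypoxia genes had 26 of 32 above 0 with a median of 0.14; ENO2, a neuronal enolase, had 59.6 CPM in WT, 62.8 CPM with shRNA 1 and 38.3 CPM with shRNA 2, and the vasodilator peptide ADM 8.63, 10.0 and 5.22 CPM. The 73 cytosolic ribosomal protein genes had a median of -0.08, the 55 nuclear-encoded respiratory chain genes -0.03 and the 24 interferon-stimulated genes -0.08. Of 54 clustered histone genes only 6 were well counted, and these stood at a median of 0.89 with shRNA 1 and 0.76 with shRNA 2 against WT. The count minimum is summed over the 3 libraries, so genes high with both hairpins pass it more easily. These medians therefore do not describe the whole list. By chromosome, the median hairpin difference ran from -0.05 (chromosome 13) to 0.06 (chromosome 20).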
